A study of Mus musculus with 8 samples.

Results

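The genes described here are 10 members of the BCL2 family, chosen by symbol from the 24421 gene symbols that the count files share. They comprise 3 anti-apoptotic members (Bcl2, Bcl2l1 and Mcl1), 5 BH3-only members (Bcl2l11, Bbc3, Pmaip1, Bid and Bmf) and 2 effectors (Bax and Bak1). All 10 passed the filter on low counts and were tested. The transcripts were measured by RNA sequencing of splenic naive CD4+ T cells, obtained with an isolation kit from male C57BL/6 mice aged 6 to 8 weeks. The mice carried a wild-type or a floxed Pcbp1 gene, in both cases with a Cre recombinase driven by Cd4 by the genotype field. This Cre is active from thymic development onwards and so in T cells of both the CD4 and CD8 lineages. PCBP1 (hnRNP E1) binds C-rich stretches of RNA and acts in splicing, stability and translation.

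E1KO and E1WT are the library titles, with 4 libraries each, and differences are always E1KO over E1WT. The genotype field contradicts the title in all 8 samples: it gives Pcbp1+/+Cd4-Cre (WT) for the libraries titled E1KO and Pcbp1fl/flCd4-Cre (KO) for those titled E1WT, so by that field both groups carry the Cre. In CPM, the read count scaled to a common library size, Pcbp1 itself averaged 39.7 ± 1.57 under the E1KO title and 224 ± 16.3 under E1WT (SD, n = 4), which goes with the titles. Grouping by the genotype field would turn every sign given here. Libraries held 28264655 to 36738202 gene counts. Xist, the RNA of the inactive X chromosome, averaged 397 ± 30.9 CPM under E1KO and 1.51 ± 1.09 under E1WT although the labels call all mice male, so the titles cannot be told apart from this difference. All 10 family members lie on autosomes. The chromosomes of the pathway genes named further on, Huwe1 among them, were not examined for this difference. No label ties a library to an animal, and the p-values therefore reflect how libraries vary, which may be technical.

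BCL2 family proteins decide whether the outer membrane of mitochondria stays intact. BAX and BAK form the pores that release cytochrome c and start caspase activation, BCL2, BCL-XL and MCL1 hold them in check, and BH3-only proteins report stress or loss of survival signals by occupying the guardians or by acting on the effectors. In naive T cells, survival is known to depend on interleukin-7, which maintains BCL2 and MCL1, and BIM, the product of Bcl2l11, is a main mediator of death when such signals are withdrawn.

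Most of the 10 chosen members were higher in E1KO-titled libraries, on both sides of the balance. They were chosen with earlier results of these data known, and 0 of 11 further tested family genes rose or fell in edgeR. Of the 10 members 7 rose and 0 fell in the edgeR quasi-likelihood test at a Benjamini-Hochberg adjusted p of 0.05 over 13333 genes, where 12.2% of all tested genes rose and 11.1% fell (23.3% in either direction). At an unadjusted p under 0.05, 1 member (Bmf) was lower. DESeq2 called 7 members higher and 1 lower, where it called 13.8% of genes higher and 14.2% lower (27.9% in all). By role, 2 of 3 anti-apoptotic members, 4 of 5 BH3-only members and 1 of 2 effectors rose. The median log2 fold was 0.33 over the members and 0.01 over all tested genes. For the same 7 genes every E1KO-titled library lay above every E1WT-titled library, which was so for 13.9% of tested genes. The reverse held for 0 members and 12.1% of genes, so 26.0% of genes separated the titles in all. Bbc3 had the largest difference, about 2.17-fold, and the other called members lay between 1.19-fold and 1.54-fold.

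**Figure D1:**
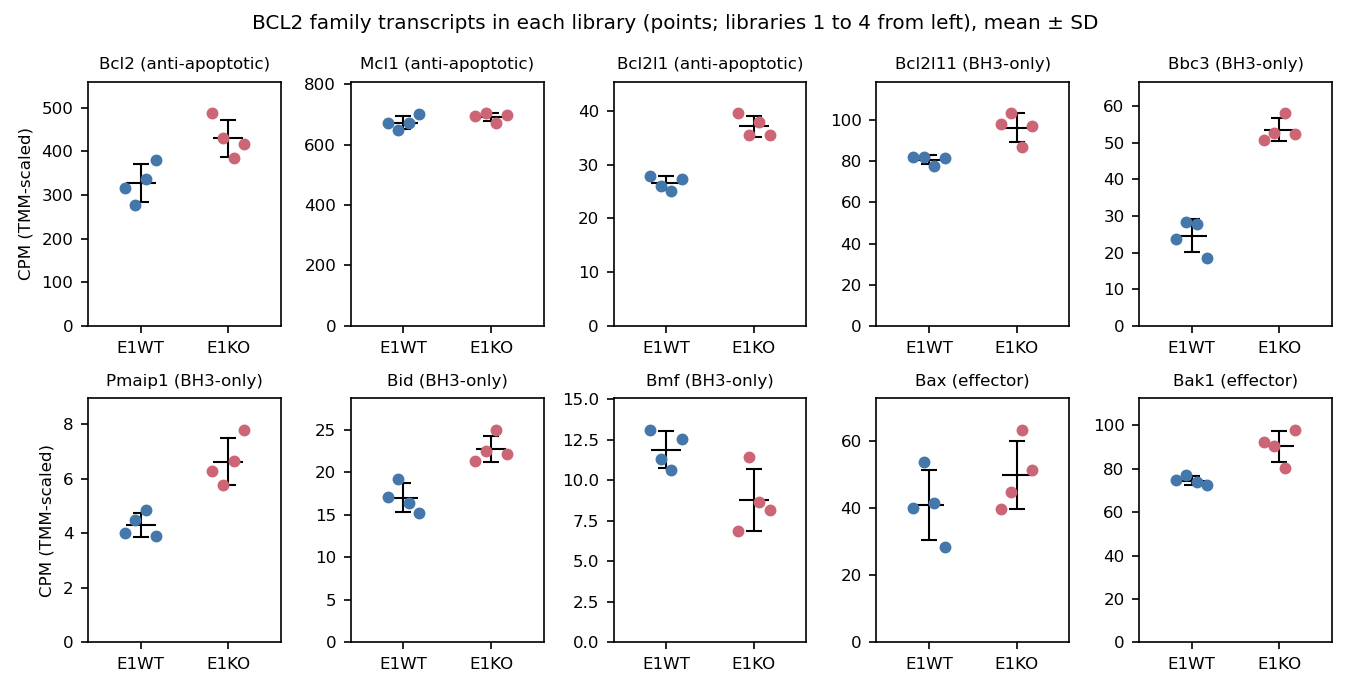
TMM-scaled CPM (vertical axes, each starting at 0) of the 10 BCL2 family genes in the E1WT-titled and E1KO-titled libraries; points are libraries 1 to 4 from left to right, and bars are the mean ± SD (n = 4). The titles are separated for Bcl2, Bcl2l1, Bcl2l11, Bbc3, Pmaip1, Bid and Bak1 and overlap for Mcl1, Bmf and Bax.

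Among the guardians, Mcl1 was the most abundant member and differed least between the titles. Mcl1, whose short-lived protein needs steady synthesis, lies at chr3:95658788-95663176 on the plus strand (GRCm38). It was at 694.9, 703.2, 670.8 and 696.2 CPM in E1KO libraries 1 to 4 and at 669.9, 647.8, 672.9 and 699.9 CPM in E1WT libraries 1 to 4. The titles overlapped, and the log2 fold was 0.04 ± 0.05 (SE, adjusted p = 0.61 in edgeR). With the trend of expression on exon length removed from each library it was -0.006, so its sign is not set.

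Bcl2, the founding member and the guardian that interleukin-7 maintains, is a gene of 176097 bp at chr1:106538178-106714274 on the minus strand. It was at 486.8, 430.5, 383.5 and 416.7 CPM in E1KO libraries 1 to 4. In E1WT libraries 1 to 4 it was at 316.5, 276.6, 337.0 and 380.3 CPM. The groups did not overlap, but the lowest E1KO library (383.5) and the highest E1WT library (380.3) nearly met. The log2 fold was 0.39 ± 0.10 (SE, adjusted p = 0.014 in edgeR). Bcl2 shares 558 bp of exon with the antisense gene D630008O14Rik, which was not analysed here. Since strand use in counting is not given, reads from that stretch cannot be assigned.

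Bcl2l1, which encodes BCL-XL and is known to be induced by T cell receptor and CD28 signals, rose with little spread. The gene lies at chr2:152780668-152831728 on the minus strand. Its levels were 39.5, 35.5, 37.9 and 35.5 CPM in E1KO libraries 1 to 4 and 27.8, 26.0, 25.0 and 27.4 CPM in E1WT libraries 1 to 4, with a wide gap between the titles. The log2 fold was 0.48 ± 0.07 (SE, adjusted p = 0.0005 in edgeR). Gene counts do not separate its long, protective splice form from the short, pro-apoptotic form.

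The BH3-only genes held the largest difference of the family. Bbc3 encodes PUMA, which binds all the guardians and is a classical p53 target that FOXO factors also induce when growth factor is withdrawn. It lies at chr7:16308393-16318205 on the plus strand. Bbc3 was at 50.8, 52.7, 58.1 and 52.5 CPM in E1KO libraries 1 to 4 and at 23.9, 28.4, 27.9 and 18.5 CPM in E1WT libraries 1 to 4. Its lowest E1KO library was far above its highest E1WT library, and E1WT 4 was the lowest of all 8. The log2 fold was 1.12 ± 0.12 (SE, adjusted p = 7.35e-05 in edgeR). Without the E1WT 4 library it was 1.003 (adjusted p = 1.55e-05 in edgeR), the lowest value over the 16 alternative settings.

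Bcl2l11, at chr2:128126038-128162547 on the plus strand, encodes BIM, which is required for the death of many self-reactive and activated T cells. It was at 98.2, 103.2, 86.8 and 96.9 CPM in E1KO libraries 1 to 4 and at 82.0, 82.0, 77.5 and 81.4 CPM in E1WT libraries 1 to 4. All E1KO values lay above the E1WT values, by a small margin for E1KO 3. The log2 fold was 0.25 ± 0.06 (SE, adjusted p = 0.011 in edgeR), the smallest among the members that rose.

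Both genes are known FOXO targets, so their promoter windows were searched for the FOXO core GTAAACA. The search covered, on both strands, the 250 bases before each start site in RefSeq (build GRCm38.p6), with 16 windows for 9 of the 10 members, all but Pmaip1. The core was present in 2 of these 16 windows, 1 of Bcl2l11 and 1 of Bbc3, and in 3.17% of all 32851 windows. The windows are shown because these 2 members hold the matches. Capitals mark the core, which Bbc3 carries as its reverse complement. The Bcl2l11 window is chr2:128125788-128126037 on the plus strand, and its core lies 227 to 221 bases before the start site. The Bbc3 window is chr7:16310011-16310260 on the plus strand, upstream of an internal start site, and its core lies 167 to 161 bases before that site. Neither window overlaps an annotated exon in GENCODE M21.
Bcl2l11: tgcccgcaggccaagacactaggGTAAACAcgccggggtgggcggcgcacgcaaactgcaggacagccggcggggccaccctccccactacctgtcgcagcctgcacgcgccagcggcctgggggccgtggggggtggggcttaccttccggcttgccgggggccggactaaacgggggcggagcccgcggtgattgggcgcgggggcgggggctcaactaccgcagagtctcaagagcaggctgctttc
Bbc3: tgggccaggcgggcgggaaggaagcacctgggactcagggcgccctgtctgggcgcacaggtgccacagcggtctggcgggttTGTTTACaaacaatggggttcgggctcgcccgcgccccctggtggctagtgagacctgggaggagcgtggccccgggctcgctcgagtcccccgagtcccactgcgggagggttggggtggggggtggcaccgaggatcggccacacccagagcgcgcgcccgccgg

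Other motifs were searched in the same windows. The GC box GGGCGG was in 9 of 16 member windows and 32.7% of all windows, with matches in Bax, Bbc3, Bcl2, Bcl2l11, Bid and Mcl1. The CCAAT box CCAAT was in 5 of 16 and 33.8%. The cAMP response element TGACGTCA, the ATF4 element TGATGNAA and the TATA box TATAAA were in 0 member windows and in 1.55%, 3.45% and 12.4% of all windows. A p53 response element of 20 bases without spacer, with up to 2 mismatches outside its fixed C and G positions, was in 0 member windows and 0.271% of all windows. GC content had a median of 61% over the member windows and 52.4% over all windows. None of the spelled motifs contains another, and a match describes letters only.

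Pmaip1 encodes NOXA, a selective antagonist of MCL1, and is another p53 target. It lies at chr18:66458533-66465565 on the plus strand. It was a low transcript, with 111 to 260 reads per library, at 6.27, 5.77, 6.66 and 7.79 CPM in E1KO libraries 1 to 4 and 4.01, 4.48, 4.84 and 3.88 CPM in E1WT libraries 1 to 4. The groups did not overlap, and the log2 fold of 0.62 ± 0.14 (SE, adjusted p = 0.0075 in edgeR) was second in size to that of Bbc3.

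Bid, at chr6:120891930-120916853 on the minus strand, links death receptors to mitochondria once caspase-8 has cleaved its protein. Its levels were 21.3, 22.6, 25.0 and 22.1 CPM in E1KO libraries 1 to 4 and 17.1, 19.3, 16.4 and 15.2 CPM in E1WT libraries 1 to 4. The titles were separate, and the log2 fold was 0.42 ± 0.09 (SE, adjusted p = 0.0074 in edgeR). Bid shares 628 bp, 17.7% of its exon length, with Bcl2l13 on the other strand, which had a log2 fold of 0.14 ± 0.08 (adjusted p = 0.26). With the exon-length trend removed Bcl2l13 was called higher, by 0.20 (adjusted p = 0.021). Strand use in counting is not given, so whether reads in this overlap were counted for Bid is not known.

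Bmf stood apart as the 1 member with a negative log2 fold. Its protein binds the dynein light chain of myosin V motors, and it lies at chr2:118528757-118549687 on the minus strand. It was at 6.88, 11.4, 8.67 and 8.18 CPM in E1KO libraries 1 to 4 and at 13.1, 11.3, 10.6 and 12.5 CPM in E1WT libraries 1 to 4. E1KO 2 lay within the E1WT range and the other E1KO libraries lay below it. The log2 fold was -0.44 ± 0.15 (SE) at an adjusted p of 0.052 in edgeR, so Bmf just missed the threshold. It passed as lower with DESeq2, limma-voom, DESeq2 size factors, the exon-length trend removed or without the E1KO 2 library, at adjusted p values of 0.0206, 0.0406, 0.0464, 0.0307 and 0.0114.

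**Figure D2:**
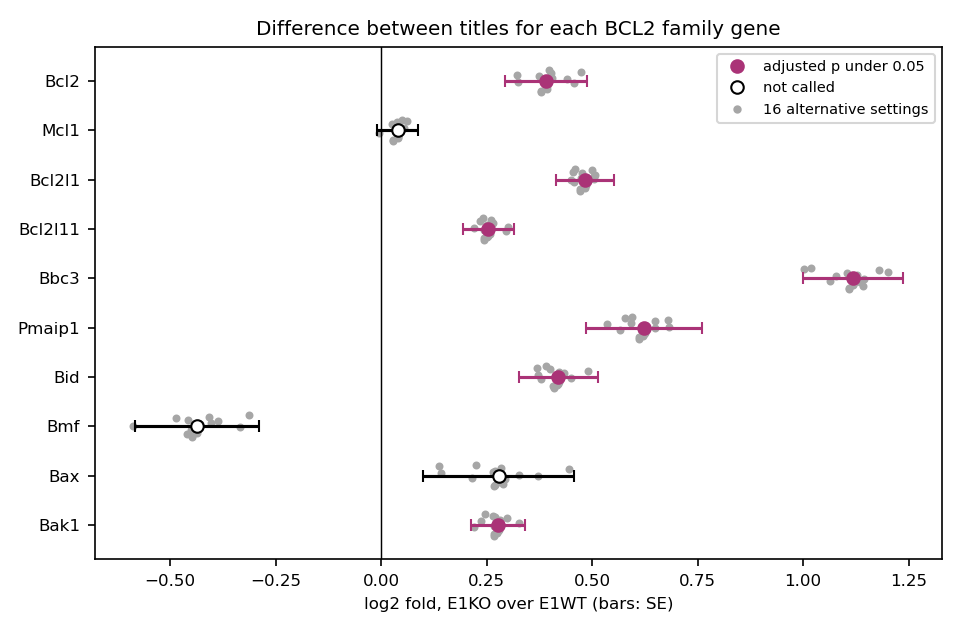
Log2 fold of E1KO over E1WT (horizontal axis) for each BCL2 family gene; large points are the edgeR estimates with SE bars, filled where the adjusted p was under 0.05, and small grey points are the 16 alternative settings. Bbc3 lies furthest to the right at 1.12, Mcl1 sits at 0.04, and Bmf at -0.44 is the 1 gene whose points are all below 0.

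Of the effectors, Bak1 rose and Bax was too variable to call. Bak1, whose protein sits in the mitochondrial outer membrane, lies at chr17:27019810-27029009 on the minus strand. It was at 92.2, 90.5, 80.6 and 97.9 CPM in E1KO libraries 1 to 4 and at 75.0, 77.0, 73.7 and 72.3 CPM in E1WT libraries 1 to 4. The E1WT values were tight and all below the E1KO values (log2 fold 0.28 ± 0.06, SE, adjusted p = 0.009 in edgeR). It shares 614 bp of exon with Ggnbp1 on the other strand, which was at 0.827 ± 0.252 against 1.57 ± 0.343 CPM and fell by 0.93 on the log2 scale (SE 0.31, adjusted p = 0.047 in edgeR). That call was lost without any library other than E1KO 1. Whether reads in the overlap were counted for Bak1 is not known, since strand use in counting is not given.

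Bax, at chr7:45461697-45466898 on the minus strand, encodes the effector that moves from the cytosol to mitochondria and is a p53 target. It was at 39.8, 44.7, 63.2 and 51.2 CPM in E1KO libraries 1 to 4 and at 40.1, 53.8, 41.6 and 28.4 CPM in E1WT libraries 1 to 4. The groups overlapped widely, from the low E1WT 4 to the high E1KO 3. The log2 fold was 0.28 ± 0.18 (SE, adjusted p = 0.29 in edgeR), as large as that of Bak1 with about 3 times the error. It was 0.45 (adjusted p = 0.065) without the E1WT 2 library and 0.14 without E1KO 3 or without E1WT 4. The same-strand gene Gm45808 shares 192 bp of exon with Bax and was not analysed here.

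The spread of some members within a title went with a property of whole libraries. Across 13256 genes, the deviation of log2 CPM from the mean over libraries was correlated with exon length by -0.319 in E1KO 3 and -0.262 in E1WT 2, where short transcripts were high, and by 0.223 in E1KO 1 and 0.317 in E1WT 4, where long transcripts were high. Bax, with 1.58 kb of exon, was highest in E1KO 3 and E1WT 2 of their titles and lowest in E1KO 1 and E1WT 4. Bcl2, with 9.16 kb of exon, was ordered the other way in these 4 libraries. When the length trend was removed, the within-title SD of log2 CPM went from 0.34 to 0.21 for Bax, from 0.17 to 0.11 for Bcl2 and from 0.21 to 0.14 for Bbc3. It went from 0.04 to 0.08 for Mcl1 and from 0.087 to 0.126 for Bak1. Bax then had a log2 fold of 0.22 (adjusted p = 0.17) and Bcl2 one of 0.46 (adjusted p = 0.00016).

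**Figure D3:**
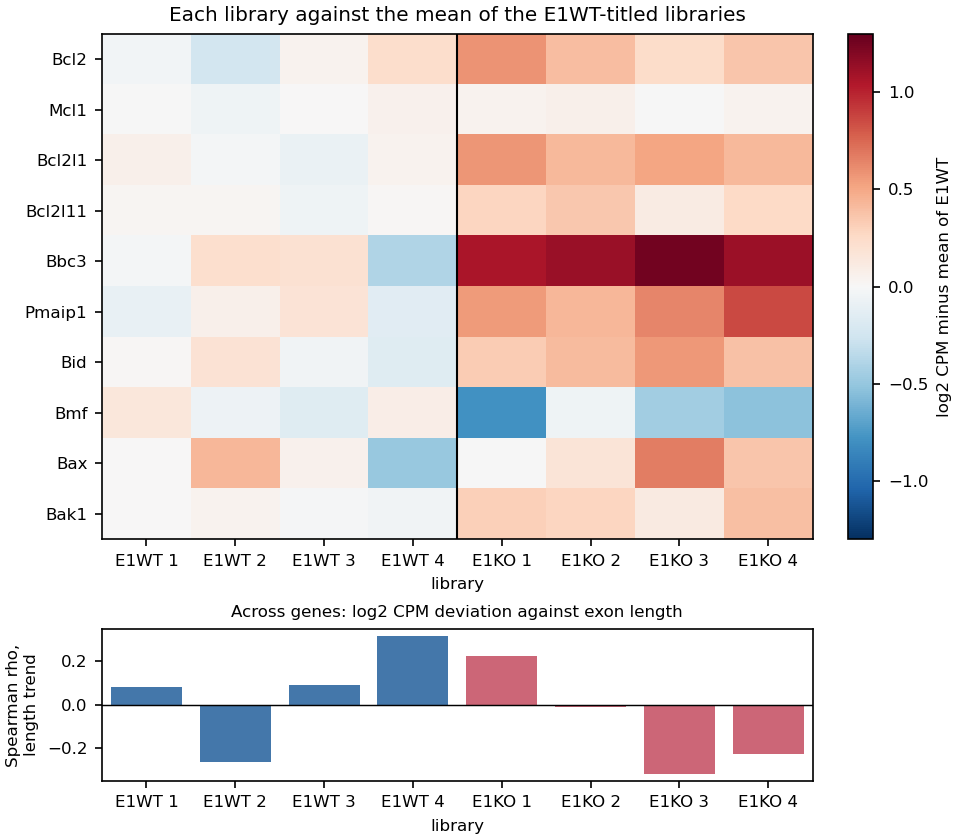
Upper panel: colour gives log2 CPM of each gene in each library minus the mean of the E1WT-titled libraries. Lower panel: Spearman correlation across genes of each library's log2 CPM deviation with exon length. Bbc3 is high in all 4 E1KO libraries, and Bax is lowest in E1WT 4 (correlation 0.317) and highest in E1KO 3 (-0.319).

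Levels of different genes were compared as CPM per kb of exon. In E1WT-titled libraries Mcl1 led at 197 ± 6.25 CPM per kb (SD, n = 4), higher than 98.8% of the 13256 tested genes with a known length. Bcl2 (35.8 ± 4.71), Bak1 (31.0 ± 0.826) and Bax (26.0 ± 6.59) followed, and neighbours in this order overlapped between libraries. Bbc3 (11.6 ± 2.16) and Bcl2l11 (10.05 ± 0.269) overlapped with each other, below Bax. Bcl2l1 (5.79 ± 0.281), Bid (4.79 ± 0.480), Bmf (2.26 ± 0.217) and Pmaip1 (1.57 ± 0.161) came last, in separate ranges. The order depended on the length used: with the longest transcript in place of all exons, Bax (37.2 ± 9.45) passed Bak1 (31.2 ± 0.833) and Bcl2l11 (16.02 ± 0.428) passed Bbc3 (13.6 ± 2.52).

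In E1KO-titled libraries the first 8 places were the same on this per-length scale, but ranges met in other places. Bbc3 reached 25.2 ± 1.47 CPM per kb (SD, n = 4), which overlapped with Bax (31.6 ± 6.43) and no longer with Bcl2l11 (12.0 ± 0.858). Bcl2 at 46.9 ± 4.70 CPM per kb stood clear of Bak1 (37.5 ± 2.999). Pmaip1 (2.42 ± 0.314) moved ahead of Bmf (1.67 ± 0.364), with overlap. The level of Bbc3 was 1.93 to 2.53 times that of Bcl2l11 in E1KO-titled libraries and 0.86 to 1.36 times in E1WT-titled libraries.

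Summed by role on the per-length scale, guardians stood above the BH3-only genes in every library. The anti-apoptotic sum was 246 to 265 CPM per kb in E1KO-titled and 225 to 252 in E1WT-titled libraries, with Mcl1 making up 76.7% to 79.7% and 81.2% to 84.1% of it. The BH3-only sum was 45.8 to 49.3 against 26.9 to 32.8 CPM per kb, and the share of Bbc3 in it was 51.4% to 55.5% against 32.3% to 42.1%. The effector sum was 63.6 to 73.6 against 48.1 to 66.1 CPM per kb. The ratio of the anti-apoptotic to the BH3-only sum was 5.001 to 5.79 in E1KO-titled and 6.87 to 9.37 in E1WT-titled libraries. That separation depended on the length scale: with CPM not divided by length the ratio was 5.90 to 6.65 against 6.54 to 8.42, and E1KO 1 and E1WT 2 crossed. These sums describe transcripts, give no protein level and were not tested.

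**Figure D4:**
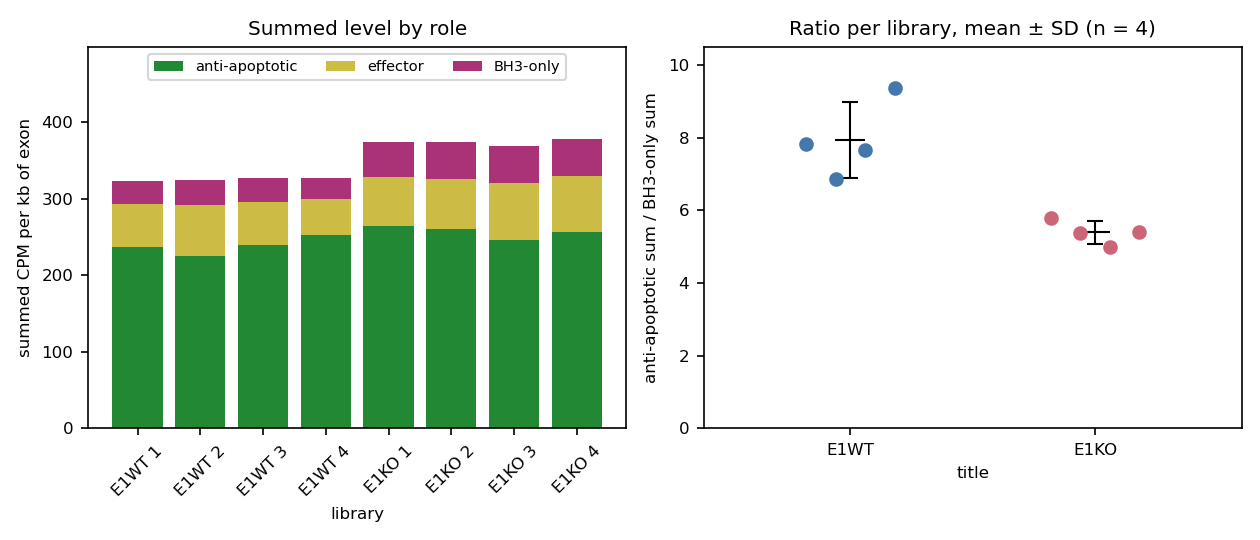
Left: CPM per kb of exon summed over anti-apoptotic, effector and BH3-only genes in each library (stacked bars from 0). Right: ratio of the anti-apoptotic to the BH3-only sum in each library (points), with mean ± SD (n = 4). The ratio is 5.001 to 5.79 in E1KO-titled and 6.87 to 9.37 in E1WT-titled libraries.

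Of 16 further family genes 11 were tested, and 0 rose or fell in edgeR, with a median log2 fold of 0.14. Among all tested genes 12.2% rose and 11.1% fell. DESeq2 called 1 higher and 0 lower, where it called 13.8% of genes higher and 14.2% lower. At an unadjusted p under 0.05 in edgeR, 2 were higher and 0 lower, as were 2436 and 2357 of all 13333 tested genes. The 2 were Bcl2l2, which encodes the guardian BCL-W (8.19 ± 0.341 against 6.44 ± 0.932 CPM, adjusted p = 0.062), and the BH3-only gene Bad (10.04 ± 1.75 against 7.99 ± 0.644 CPM, adjusted p = 0.097), both singled out after seeing values. Bcl2a1b, whose near-identical copies share reads, had a log2 fold of 0.23 ± 0.18 (adjusted p = 0.37) and is uncertain. Bcl2l10, Bok, Hrk, Bcl2l15 and Bcl2a1a did not pass the filter on low counts, with at most 23 reads in any library, and are named to account for the list.

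In the list of the mitochondrial death pathway, 6 of 20 tested genes rose and 0 fell in edgeR, against 12.2% and 11.1% of all tested genes. At an unadjusted p under 0.05 and with DESeq2, 0 were lower, and the median log2 fold was 0.17. Vdac1, an outer membrane channel, rose by 0.30 ± 0.05 on the log2 scale, from 86.8 ± 3.76 to 107 ± 4.39 CPM, and Htra2, a released protease that counters the inhibitors of apoptosis, by 0.52 ± 0.13. Cycs, Casp9 and Vdac3, picked once values were known, rose by 0.38, 0.30 and 0.20. Cycs lost its call without E1KO 3 or E1KO 4, Casp9 without E1KO 2, E1KO 4, E1WT 1, E1WT 2 or E1WT 4, and Vdac3 without any library other than E1KO 1 and E1WT 2. The count of genes that rose was 3 without the E1KO 4 library, where 8.83% of all tested genes rose. The calls of Vdac1 and Htra2 held under every alternative run.

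Among 27 genes that act upstream 4 rose and 0 fell in edgeR (1 lower at an unadjusted p under 0.05, 1 with DESeq2), against 12.2% and 11.1% of all tested genes. Their median log2 fold was 0.02. Pim1, a cytokine-induced survival kinase, rose by 0.45 ± 0.06, E2f1 by 0.49 ± 0.12 and Trib3, a target of the integrated stress response, by 0.49 ± 0.14. Mapk3, picked once values were known, rose by 0.23. Trib3 lost its call without E1KO 4 or E1WT 4, and Mapk3 without any library other than E1KO 1 and E1WT 2. Without the E1KO 4 library 2 rose, where 8.83% of all tested genes rose.

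Of 20 p53 target genes outside the family 18 were tested, of which 5 rose and 1 fell (median log2 fold 0.13), against 12.2% and 11.1% of all tested genes. Phlda3, an AKT inhibitor, rose by 2.02 ± 0.22, Cdkn1a, the cell cycle inhibitor p21, by 1.19 ± 0.28 and Sesn2 by 0.93 ± 0.15 on the log2 scale. Pidd1 and Aen rose by 0.61 and 0.25 and Rrm2b fell by 0.21, named after their values were seen. Rrm2b lost its call without E1KO 4, E1WT 3 or E1WT 4. Aen lost its call without E1KO 3, E1KO 4, E1WT 1, E1WT 3 or E1WT 4. The number that rose was 4 without E1KO 3, E1KO 4, E1WT 1 or E1WT 3, and in those runs 8.83% to 10.2% of all tested genes rose.

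In the list of protein partners and turnover factors, 2 of 19 rose and 5 fell (median log2 fold -0.01), against 12.2% and 11.1% of all tested genes. Huwe1, a ubiquitin ligase for MCL1, went from 974 ± 161 to 598 ± 77.3 CPM (log2 fold -0.70 ± 0.12). With the exon-length trend removed its log2 fold was -0.445. The calcium release channels Itpr2 and Itpr3, which bind BCL2, had log2 folds of -0.68 ± 0.12 and -0.49 ± 0.07. Becn1 and Ambra1 fell by 0.21 and 0.27, and Bag1 and Dynll2, a light chain that binds BIM and BMF, rose by 0.30 and 0.23, named after their values were seen. With the exon-length trend removed, Bag1, Dynll2 and Becn1 were not called (adjusted p = 0.0795, 0.0807 and 0.064 in edgeR). Becn1 lost its call without any library other than E1KO 3 and E1WT 4, and Ambra1 without any other than E1KO 1 and E1WT 2. Leaving out E1KO 2, E1KO 4, E1WT 1 or E1WT 3 alone brought the number that fell to 3. In those runs 7.47% to 8.18% of all tested genes fell. Without E1KO 1 or E1WT 2 the number that rose was 4, where 12.2% of all tested genes rose.

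The genes most like Bbc3 over the 8 libraries were Irf5, Glipr2, Pip4k2c, Igsf8 and Hsd17b11, with Pearson correlations of log2 CPM of 0.995, 0.995, 0.994, 0.994 and 0.991 among 10421 genes compared. Each rose, by 0.79, 0.56, 0.22, 0.57 and 0.53 on the log2 scale. The points share libraries, scaling and the difference between titles.

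Markers of other cells also differed between the same libraries, and their counts stand against 12.2% of all tested genes that rose and 11.1% that fell. Dendritic cell markers rose in 8 of 12 cases (summed CPM 349 to 393 in E1KO-titled and 267 to 313 in E1WT-titled libraries), monocyte and macrophage markers in 6 of 11 with 1 falling (127 to 156 against 64.8 to 75.7) and erythroid markers in 6 of 8 (191 to 232 against 73.9 to 99.1). The 4 globin genes of the erythroid list are at 0 in every library. NK cell markers rose in 3 of 7 (128 to 139 against 116 to 127), regulatory T cell markers in 4 of 8 with 1 falling (747 to 773 against 647 to 687) and activated or memory markers in 3 of 8 (866 to 900 against 674 to 712). Plasma cell markers rose in 1 of 6 (831 to 1038 against 571 to 780). The T cell markers summed to 3873 to 4189 against 4639 to 4932 CPM, with 6 of 9 lower and 1 higher. Sums overlapped between the titles for B cell (278 to 294 against 266 to 291), neutrophil (45.2 to 49.0 against 44.6 to 48.2) and CD8 markers (20.3 to 27.9 against 25.4 to 31.0). Of these, 2 of 10 B cell markers rose and 1 fell, 1 of 9 neutrophil markers rose and 3 fell, and 1 of 2 CD8 markers fell. Klra4 and Klra8 of the NK list are at 0 in every library. In bulk RNA, more cells of a type and more RNA per cell cannot be told apart, and the part of these markers in the BCL2 family differences was not tested.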

How the data were processed

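Naive CD4+ T cell RNA was profiled in 8 libraries, 4 per title. The authors deposited raw read counts per gene symbol, made with TopHat2 2.1.0 and HTSeq 0.9.1 on mm10, per the submitters' processing notes. For annotation, strand setting and filters, the method is not given in the sources used. The 5 rows that name no gene were left out. They held 28.2% to 30.8% of counts in E1KO-titled and 33.3% to 37.0% in E1WT-titled libraries. The titles did not overlap in this share, and its part in the differences was not tested.

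Title set the groups. The 10 family members and the pathway and marker lists were chosen with earlier results of these data known. All genes were fitted together with edgeR 4.0.16 in R 4.3.3: TMM scaling, the default expression filter (count minimum 10, total minimum 15; 13333 genes), the quasi-likelihood test and Benjamini-Hochberg adjustment over all tested genes at 0.05. CPM values are TMM-scaled. Each log2 fold has a standard error computed from its F statistic, and log2 CPM used a prior count of 2. GENCODE M21 (GRCm38, the assembly of mm10) gave exon lengths and positions. Of the symbols, 23376 matched by name, 684 by an older symbol and 361 did not match. Promoter sequences come from RefSeq (GRCm38.p6). The scripts were tested on simulated data. Every pair of same-title libraries differed by more than sampling noise (chi-square per degree of freedom 4.10 to 60.1).

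Genes named are the 10 members, called genes of the list of other family members, up to 3 called genes with the smallest p of each other pathway list, Pcbp1 and Xist, and the 5 genes with the highest correlation with the called member of the largest fold (predicted gene models and a mean log2 CPM under 1 left out). Overlapping genes were named from the annotation. Any other named gene was picked with values known, or is named to account for a list (near-identical copies, genes that were not tested or are at 0). A gene that the rule names in the mitochondrial list is not reported here. Alternatives were DESeq2 size factors, DESeq2 1.42.0, limma-voom (limma 3.58.1), other filters, a replicate block, removal of the exon-length trend, each library left out, and E1KO 1 with E1WT 4 left out.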

Additional observations from a re-analysis of the deposited data

Results flagged for a closer look

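In a title of 4 libraries, a library was singled out where its gap to the nearest other library, as a share of the title's range, exceeded Dixon's critical value for 4 samples. Among 70 such groups, from 35 genes, 4 were singled out, and chance alone singles out about 1 in 20. Among the family members this was Bcl2l11, at 77.5 CPM in E1WT 3 against 81.4 to 82.0 CPM in the other E1WT libraries. Among p53 targets, Phlda3 was at 7.92 CPM in E1KO 3 against 5.12 to 5.28 CPM, Pidd1 at 10.1 CPM in E1WT 2 against 7.11 to 7.54 CPM, and Aen at 30.8 CPM in E1WT 4 against 34.0 to 34.3 CPM.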

How the results depend on the processing

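The 7 members that rose kept their direction and call under all 16 alternatives, with adjusted p values of at most 0.0465. Under the fit with the replicate number as a block (replicate block), 7 members were also higher, all tested genes gave 1151 higher and 1005 lower calls, and the mitochondrial list had 3 higher, the upstream list 2 higher, the partner list 3 lower and the p53 list 0 lower. Same-numbered libraries did not deviate together (correlations of 0.014, -0.048, -0.035 and -0.099). Differently numbered libraries reached -0.316 (E1KO 1 with E1WT 2) and 0.261 (E1KO 1 with E1WT 4). Such library-wide deviations could hide a weaker shared one, so these values cannot exclude pairing by number. For Bmf the log2 fold was -0.448 with DESeq2 size factors, the DESeq2 test and the exon-length trend removed and -0.461 with limma-voom, each past the threshold, so 1 member was then lower. Leaving out single libraries gave -0.587 to -0.334 for Bmf and 0 to 1 members lower. Mcl1 reversed to -0.006 with the length trend removed, and Bcl2a1d had -0.009 without E1KO 3 and -0.038 without E1WT 1 (-0.038 to 0.21 over single libraries left out).

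With single libraries left out, higher calls ran from 0 to 1 in the other family genes and 3 to 8 in the mitochondrial list. They ran from 2 to 4 in the upstream list and 2 to 4 in the partner list. Lower calls ran from 0 to 1 upstream, 3 to 5 among partners and 0 to 1 among p53 targets. In these runs 8.83% to 12.2% of all tested genes rose and 7.47% to 11.6% fell. Other family genes had 1 higher with the DESeq2 test (Bcl2l2) and 1 with the length trend removed (Bcl2l13). Upstream genes had 1 lower with DESeq2 size factors, the DESeq2 test or E1KO 1 and E1WT 4 both left out, and 2 with the length trend removed. Without these 2 libraries p53 targets had 0 lower. With the longest transcript as length, E1WT levels per kb were 45.6 for Bcl2, 10.34 for Bcl2l1, 16.02 for Bcl2l11, 37.2 for Bax, 7.04 for Bid and 2.56 for Bmf. Bax then passed Bak1 and Bcl2l11 passed Bbc3, and the order was otherwise the same. The E1KO ratio of guardians to BH3-only genes was 6.16 without division by length (5.40 with it). Where a value moved, the cause was not tested. Of 23 called genes in the pathway lists, 12 kept their call throughout. Pmaip1, at 111 to 260 reads, has the least depth among the members.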
